A study of Mus musculus with 6 samples.

Results

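The cytosolic ribosomal protein genes of the mouse were followed through 6 arrays of embryonic tail tissue. A gene was a member when its probe sets carried a single gene symbol that begins with Rpl or Rps and a number, or was Rpsa, Rplp0, Rplp1, Rplp2 or Fau. The Rps6k kinases and pseudogenes were left out. This gave 49 of 12393 genes, 26 of the large and 23 of the small subunit, read by 101 of 22626 probe sets. RNA came from the presomitic mesoderm level of embryos at 9.5 days post coitum, cut off behind the youngest somite with the allantois removed. The mutant group held 3 pools of Dll3neo/neo embryos (Dll3-tm1Rbe/tm1Rbe), which carry 2 targeted copies of Dll3, a Notch pathway gene of the clock that times somites. The control group held 3 wild-type pools. C57BL/6 stands in the strain label of both. The tissue held all germ layers, each pool was hybridised to 1 array, and how many embryos made up a pool was not stated. No further allele or agent is named for either group.

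Ribosomal proteins assemble with ribosomal RNA in the nucleolus into a large subunit, which forms peptide bonds, and a small subunit, which reads the messenger RNA. The mRNAs of most ribosomal proteins start with a C in a tract of pyrimidines, the 5′ terminal oligopyrimidine (TOP) tract, through which growth signals via mTOR set their translation. Some members have been tied to the body axis: Rpl38 is mutated in the Tail short mouse, which has a shortened and mispatterned axial skeleton, and mice with mutations in Rps7 have vertebral defects.

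Each deposited value is linear and relative: a probe set on 1 array divided by its median across all 6. It therefore orders the pools for a gene and holds no absolute level. For the same reason the presence or absence of defining presomitic mesoderm markers could not be read from the file. Values of a gene are the mean log2 ratio of its probe sets, or 2 to that power where a ratio is given. Dll3, the targeted gene, had ratios of 0.480, 0.476 and 0.537 in mutant pools 1, 2 and 3, against 1.46, 1.63 and 2.01 in wild-type pools 1, 2 and 3, and was the 1 gene of 12393 (0.00807%) past the limma test (adjusted p = 0.00132). Wild-type pool 3 stood apart from the other arrays: its middle 50% of genes spanned log2 ratios from -0.20 to 0.18, against -0.07 to 0.03 in wild-type pool 2. It was the highest pool for 34.4% and the lowest for 32.5% of all genes.

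The region around the annotated transcription start is shown for 6 members because the shared start sequence is the feature that groups these genes in translation, and because these members, chosen after their values were seen, include the widest and the narrowest ranges over the pools. Sequences are from RefSeq (GRCm38.p6), 15 bases on each side of the start, and capitals mark a run of C and T that begins with C within 10 bases of the start and is at least 6 bases long. Rpl14 lies at chr9:120571502-120571531 (plus strand), Rpl12 at chr2:32961697-32961726 (plus strand), Rpl38 at chr11:114668565-114668594 (plus strand), Rpl27a at chr7:109519180-109519209 (plus strand), Rps27 at chr3:90213634-90213663 (minus strand) and Rps25 at chr9:44407699-44407728 (plus strand).
Rpl14: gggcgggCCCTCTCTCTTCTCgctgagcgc
Rpl12: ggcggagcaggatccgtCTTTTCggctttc
Rpl38: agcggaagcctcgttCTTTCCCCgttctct
Rpl27a: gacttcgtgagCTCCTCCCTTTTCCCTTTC
Rps27: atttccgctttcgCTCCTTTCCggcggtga
Rps25: tttttccgacatcttagcgaggctgctgtg

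Starts were found for 43 of the 49 genes, 51 starts in all. Such a run was present at 25 of these 51 starts (49.0%), against 6302 of 32851 starts in the whole table (19.2%). Over the window from 250 bases before to 50 after the start, CCGGAAG, which holds the core letters bound by ETS family factors, was found on either strand at 21 starts (41.2%, against 8.86% of all starts). The reverse complement of CCGGAAG begins with pyrimidines, so it can overlap the run. AAGATGGC, the core of the YY1 motif, was found at 5 starts (9.8%, against 2.75%) and TATAAA at 6 (11.8%, against 13.6%). These are matches of letters and not measured sites. Both Rpl14, among the widest ranges over the pools, and Rps27, the narrowest, have a run by this rule, while Rps25 has none. The Rps25 stretch shown opens with tttttcc, which the rule does not count. Starts are as annotated, so a tract at another start would be missed.

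No ribosomal protein gene passed the test between the genotypes. In the limma fit over all genes 0 of 49 members passed, 0 had an unadjusted p under 0.05 (159 of 12393 genes, 1.28%, did), and every adjusted p rounded to 1.0. For none of the 49 did the 3 mutant pools lie wholly above or wholly below the 3 wild-type pools, while 3.11% of all genes were higher and 1.84% lower in that way (4.95% in all). By sign 19 members were higher and 30 lower in the mutant (38.8% higher, against 51.1% of all genes; 25 higher and 24 lower after quantile normalization), with a median log2 difference of -0.0071, against 0.0028 over all genes. This split turned with single pools: leaving out wild-type pool 3 gave 39 higher and 10 lower (median 0.05). Leaving out wild-type pool 1 gave 11 and 38 (median -0.06), and leaving out mutant pool 1 gave 33 and 16 (median 0.03). For 45 members (91.8%, against 68.6% of all genes) the difference was smaller than 0.1 on the log2 scale. For 47 it was below the SD between pools of one genotype, which had a median of 0.11 log2 units among members and 0.15 among all genes (82.7% of all genes had a difference below their SD).

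**Figure D1:**
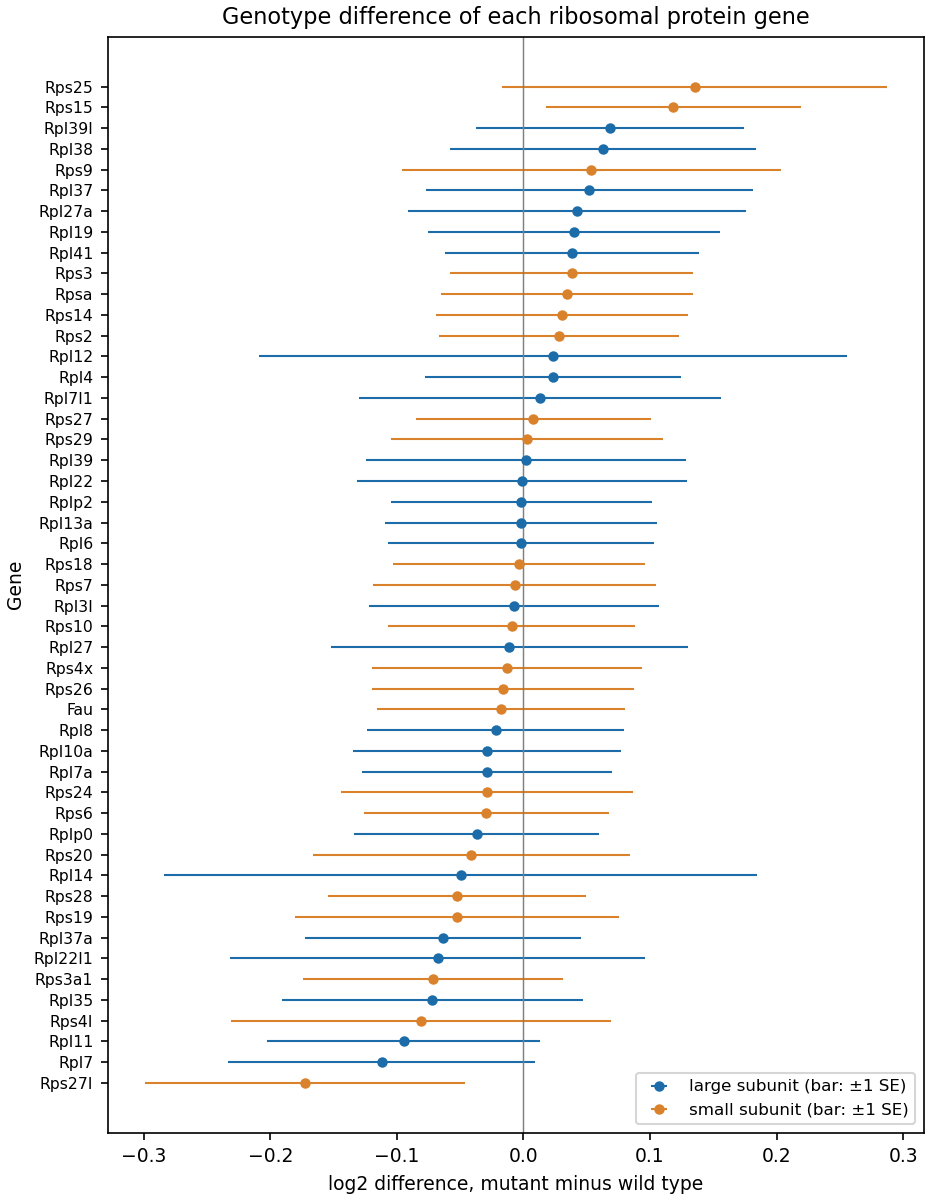
Log2 difference, mutant minus wild type, for each of the 49 ribosomal protein genes (points, coloured by subunit) with 1 standard error from limma on each side (3 pools per genotype). The differences run from -0.17 for Rps27l to 0.14 for Rps25, and for 47 genes the bar crosses 0.

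The member furthest below 0 was Rps27l, a paralog of the small subunit gene Rps27 that is known as a p53 target in human cells. Its ratios were 1.03, 0.943 and 0.919 in mutant pools 1, 2 and 3, against 0.957, 1.04 and 1.28 in wild-type pools 1, 2 and 3. Mutant pool 1 lay within the wild-type range, and the distance between genotypes came mostly from wild-type pool 3. The mean ratio was 0.965 ± 0.0593 in the mutant and 1.09 ± 0.169 in the wild type (SD, n = 3 each), a log2 difference of -0.17 (SE 0.13, limma unadjusted p = 0.202). It was -0.05 when wild-type pool 3 was left out. All of its 3 probe sets were lower in the mutant, from -0.23 to -0.14. Rps27 itself was the steadiest member, with a range of 0.06 log2 units over the 6 pools. Its ratios were 1.03, 0.987 and 0.999 in the mutant pools, against 0.993, 1.01 and 1.001 in the wild-type pools.

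Rps25, a small subunit protein that not every ribosome is reported to carry, was furthest above 0. Its ratios were 0.958, 1.04 and 1.04 in mutant pools 1, 2 and 3, against 0.736, 0.932 and 1.15 in wild-type pools 1, 2 and 3. The wild-type pools spanned more than the mutant pools and enclosed them. The log2 difference was 0.14 (SE 0.15, limma unadjusted p = 0.394), and became -0.03 when wild-type pool 1 was left out and 0.29 when wild-type pool 3 was. Without wild-type pool 3, Rpl12, Rps25 and Rps9, named because of these values, reached an unadjusted p of 0.0283, 0.0351 and 0.0497 in limma (adjusted p = 0.995 for each). Without that pool 440 of all 12393 genes had an unadjusted p under 0.05 in limma, against 159 with all 6 pools. Rpl12 and Rps25 are read by 1 probe set each. Of the 3 probe sets of Rps9, 1 had a log2 difference of 0.25 with all 6 pools, and the others had -0.07 and -0.03.

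Rps15, a protein of the head of the small subunit, had the largest positive difference after Rps25. Its ratios were 0.984, 1.12 and 1.04 in mutant pools 1, 2 and 3, against 0.925, 0.974 and 1.0 in wild-type pools 1, 2 and 3. Only mutant pool 1 fell within the wild-type range, as for Rps27l. The mean ratio was 1.05 ± 0.0685 in the mutant and 0.966 ± 0.0383 in the wild type (SD, n = 3 each), a log2 difference of 0.12 (SE 0.10, limma unadjusted p = 0.268) that stayed between 0.07 and 0.16 when each pool was left out in turn. Rps15 and Rps27l were the 2 members whose difference exceeded its standard error.

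Of the other large subunit genes with the largest differences, Rpl7 had a log2 difference of -0.11 (SE 0.12) and Rpl11, which with Rpl5 and 5S RNA restrains Mdm2, had -0.09 (SE 0.11). Rpl11 had ratios of 0.984, 0.973 and 1.02 in mutant pools 1, 2 and 3, against 1.004, 0.996 and 1.19 in wild-type pools 1, 2 and 3. Its values thus lay close to 1 except in wild-type pool 3, and without that pool its log2 difference was -0.01. Rpl35, at the peptide exit tunnel, had -0.07 (SE 0.12), with all 6 of its probe sets lower in the mutant, from -0.15 to -0.02. Rpl39l, Rpl38 and Rpl37 were on the other side with log2 differences of 0.07, 0.06 and 0.05. Among small subunit genes Rps4l had -0.08, Rps3a1 had -0.07 and Rps9 had 0.05.

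Rpl38, the Tail short gene, had ratios of 1.01, 0.933 and 1.03 in mutant pools 1, 2 and 3, against 0.813, 0.986 and 1.06 in wild-type pools 1, 2 and 3. Wild-type pool 1 was the lowest and the mutant values lay within the wild-type range, and without that pool the log2 difference was -0.05. Rps7 had a log2 difference of -0.0071 (SE 0.11). Rps19 and Rps20, whose mutations give mice dark skin, had -0.05 (SE 0.13) and -0.04 (SE 0.13). Rps6, the substrate of the S6 kinases, had -0.03 (SE 0.10), and Rpl10a had -0.03 (SE 0.11). Rpl24, mutated in the Belly spot and tail mouse, was not analysed here, nor were Rpl5, Rpl10, Rpl3, Rpl36, Rpl36a, Rpl36al, Rplp1 and Rps27a, since no probe set carries one of these symbols alone.

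The stalk, fusion and X-linked members had small differences. Rplp0, the base of the acidic stalk that recruits elongation factors, had ratios of 0.952, 1.02 and 1.01 in mutant pools 1, 2 and 3, against 0.994, 0.993 and 1.07 in wild-type pools 1, 2 and 3. Its stalk partner Rplp2 had ratios of 0.968, 0.983 and 1.03 in the mutant pools, against 0.907, 1.02 and 1.06 in the wild-type pools. In both the genotypes overlapped, with log2 differences of -0.04 (SE 0.10) and -0.0016 (SE 0.10). Fau, which encodes a ubiquitin-like protein fused to a small subunit protein, had -0.02 (SE 0.10), Rpsa, also known as a laminin receptor, had 0.03 (SE 0.10), and the X-linked Rps4x had -0.01 (SE 0.11).

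The 6 paralogs, which encode variants of standard ribosomal proteins, had a median range over the pools of 0.52 log2 units, against 0.27 for the other 43 members. The range was 0.72 for Rpl22l1, 0.58 for Rps4l, 0.56 for Rpl7l1, 0.48 for Rps27l, 0.30 for Rpl3l and 0.26 for Rpl39l. Rpl22l1, Rps4l, Rpl3l and Rpl39l are among the 26 of 49 members read by 1 probe set, so the 2 groups differ in that too. Rpl22l1, which the Rpl22 protein represses in mouse cells, had ratios of 0.917, 1.0 and 1.02 in mutant pools 1, 2 and 3, against 0.808, 1.0 and 1.33 in wild-type pools 1, 2 and 3. Its lowest and highest values were thus both in the wild type. Rpl22 had ratios of 0.925, 0.906 and 1.18 in the mutant pools, against 0.900, 1.02 and 1.08 in the wild-type pools. The log2 distance of Rpl22l1 from Rpl22 was -0.01, 0.14 and -0.22 in the mutant pools, against -0.15, -0.03 and 0.30 in the wild-type pools, so the pair kept no fixed relation within either genotype. Rpl7l1 had a log2 difference of 0.01, Rpl3l, the form of striated muscle, had -0.0073, and Rpl39, whose paralog Rpl39l is enriched in testis, had 0.0018.

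What the members shared was a pattern over pools that did not follow genotype. Wild-type pool 3 was the highest pool for 36 of the 49 genes (73.5%, against 34.4% of all genes), and 43 genes (87.8%, against 48.6%) had a log2 ratio above 0 there. Wild-type pool 1 was at the other end: it was the lowest pool for 20 genes (40.8%, against 21.2%), and 3 genes (6.12%, against 40.9%) were above 0. Mutant pool 1 was also low, with 10 genes above 0 (20.4%, against 38.7%). It was the lowest pool for 10 genes (20.4%), close to the 17.0% of all genes. Over the 49 members the log2 ratio had a median of -0.05, 0.02 and 0.04 in mutant pools 1, 2 and 3, against -0.08, -0.01 and 0.12 in wild-type pools 1, 2 and 3. The same medians over all genes were -0.03, 0.01 and -0.0098 in the mutant pools and -0.03, -0.01 and -0.0072 in the wild-type pools. Pools 1 and 3 of the wild type were thus further apart than any mutant pool was from a wild-type pool, and the median gene was 1.15-fold higher in wild-type pool 3 than in wild-type pool 1 (44 of 49 genes, 89.8%, against 52.5% of all genes). Mutant pool 3 was likewise above mutant pool 1 for 38 of 49 genes (against 53.6% of all genes), by a median of 0.09 log2 units. In bulk tissue fewer cells with a high level and less RNA per cell cannot be told apart. With quantile normalization the median in wild-type pool 3 was 0.04, a smaller departure from the mutant pools, among which mutant pool 3 then had 0.05.

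**Figure D2:**
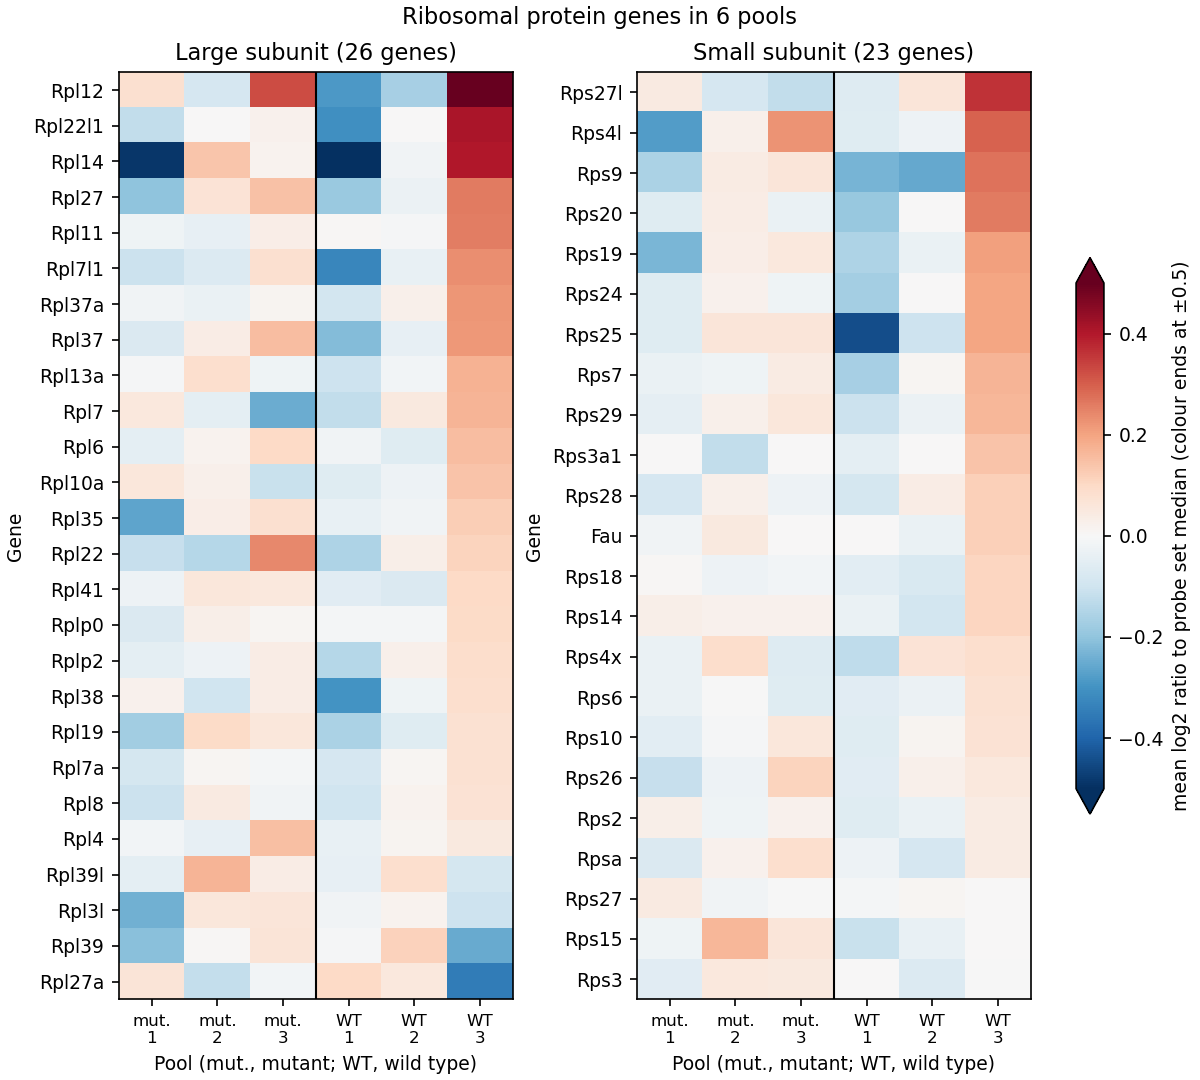
Mean log2 ratio of each of 26 large and 23 small subunit genes (rows, ordered by the value in wild-type pool 3) in the 3 mutant and 3 wild-type pools (columns), with the colour scale ending at 0.5 on either side. Wild-type pool 3 is above 0 for 43 genes and wild-type pool 1 for 3, while Rpl27a, Rpl39, Rpl3l and Rpl39l run against the rest in wild-type pool 3.

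The widest ranges over the pools, for which they are named, were those of Rpl12, at the base of the stalk, and Rpl14. Rpl12 had ratios of 1.06, 0.943 and 1.25 in mutant pools 1, 2 and 3, against 0.819, 0.891 and 1.63 in wild-type pools 1, 2 and 3. Rpl14 had 0.714, 1.10 and 1.01 in the mutant pools, against 0.677, 0.988 and 1.32 in the wild-type pools. Rpl14 was low in pool 1 of both genotypes, and both genes peaked in wild-type pool 3. The genes that ran against this pattern include Rpl27a, also named for its values, and Rpl39 at the exit tunnel. Rpl27a had ratios of 1.05, 0.921 and 0.990 in the mutant pools, against 1.07, 1.04 and 0.785 in the wild-type pools. Rpl39 had 0.866, 1.004 and 1.05 in the mutant pools, against 0.996, 1.08 and 0.840 in the wild-type pools. In both, wild-type pool 3 was the lowest pool. Rpl12, Rpl14 and Rpl39 are read by 1 probe set each. The 2 probe sets of Rpl27a differed, with ratios of 0.715 and 1.19 in mutant pool 2, and 0.671 and 0.919 in wild-type pool 3.

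Large and small subunit genes had close medians in each pool. The median log2 ratio of the large subunit was -0.06, 0.01 and 0.04 in mutant pools 1, 2 and 3, against -0.09, -0.0080 and 0.12 in wild-type pools 1, 2 and 3. That of the small subunit was -0.04, 0.02 and 0.02 in the mutant pools, against -0.06, -0.03 and 0.12 in the wild-type pools. Large minus small was -0.02, -0.0091 and 0.02 in the mutant pools, against -0.03, 0.02 and -0.0035 in the wild-type pools, so the subunit medians were at most 0.03 apart and their order changed within each genotype. By sign 10 of 26 large and 9 of 23 small subunit genes were higher in the mutant, with median log2 differences of -0.0020 and -0.0093. Wild-type pool 3 was the highest pool for 19 large and 17 small subunit genes.

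**Figure D3:**
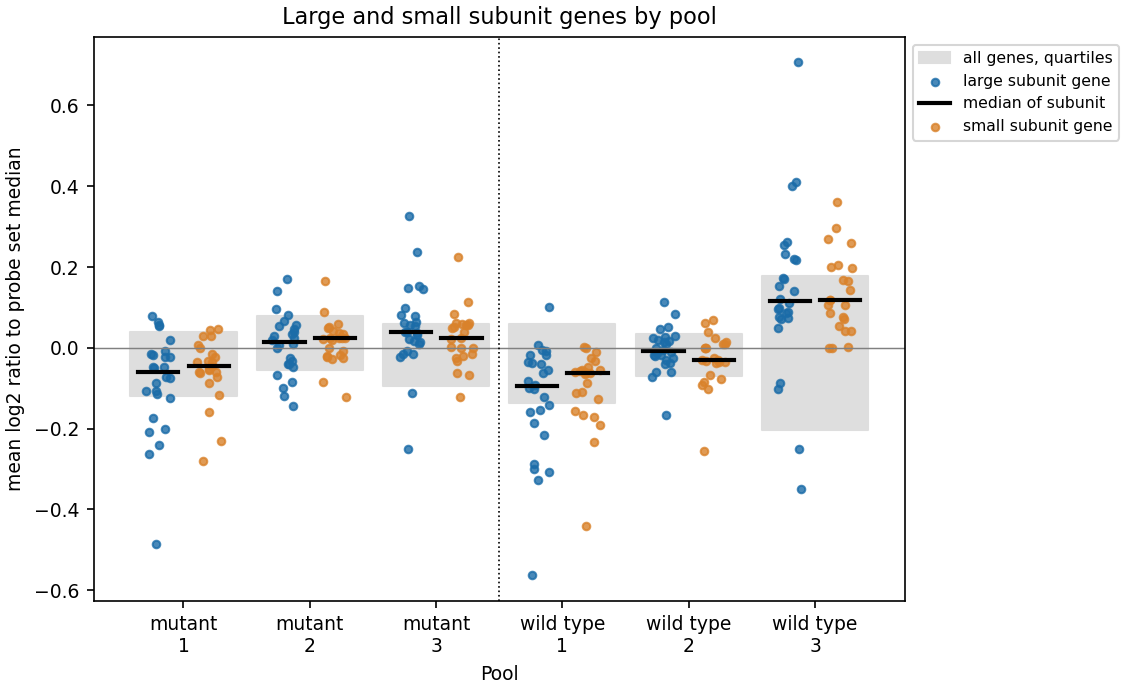
Mean log2 ratio (vertical axis) of large and small subunit genes (points) in each pool, with the median of each subunit (black lines) and the quartiles of all 12393 genes (grey). The subunit medians lie side by side in each pool, lowest in wild-type pool 1 and highest in wild-type pool 3, where the spread of all genes is also widest.

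Of the 23 genes with 2 to 6 probe sets, 13 had probe sets on both sides of 0 for the genotype difference. In wild-type pool 3, 6 genes had probe sets of both signs. Rps24, named for these values, had 6 probe sets, of which one ending in _at had ratios of 1.07, 0.926 and 1.16 in mutant pools 1, 2 and 3, against 0.929, 0.871 and 1.86 in wild-type pools 1, 2 and 3. The other one ending in _at had 1.01, 0.995 and 0.827 in the mutant pools, against 1.02, 1.02 and 0.757 in the wild-type pools. Both probe sets departed most from 1 in wild-type pool 3, but in opposite directions, while the other 4 were at 1.03 to 1.197 there. Mutant pools lay wholly above the wild-type pools in 3 of the 101 probe sets (3.05% of all probe sets did) and wholly below in 0 (1.99%, and 5.03% in either direction). These were 1 probe set each of Rps15, Rpsa and Rps18, the last named because of its values. No other probe set of these genes did so. In limma 0 of the 101 passed over all probe sets, where 1 of 22626 (0.00442%) did, and 0 had an unadjusted p under 0.05 (1.16% of all probe sets did).

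The name ending of a probe set tells how specific its probes are: those ending in _x_at include probes that match other transcripts, and _a_at probe sets match several transcripts of 1 gene. Ribosomal protein genes have many near-identical processed pseudogenes, so their signals can include transcripts of such copies. In wild-type pool 3 the median log2 ratio was 0.09 for 30 probe sets ending in _at alone, 0.14 for 29 ending in _a_at and 0.16 for 40 ending in _x_at. Log2 ratios above 0 were found for 20, 28 and 39 of these. A further 102 probe sets name a ribosomal protein gene together with other symbols, and give no gene a value here. Their median log2 ratio was -0.06, 0.02 and 0.0072 in mutant pools 1, 2 and 3, against -0.10, 0.0007 and 0.16 in wild-type pools 1, 2 and 3. By sign 27 of the 102 were higher and 75 lower in the mutant (26.5% higher, against 49.1% of all probe sets), with a median log2 difference of -0.03. In limma 0 passed (0 at an unadjusted p under 0.05). The median of the 102 too was lowest in wild-type pool 1 and highest in wild-type pool 3. Whether their split by sign turns without wild-type pool 3 was not tested.

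**Figure D4:**
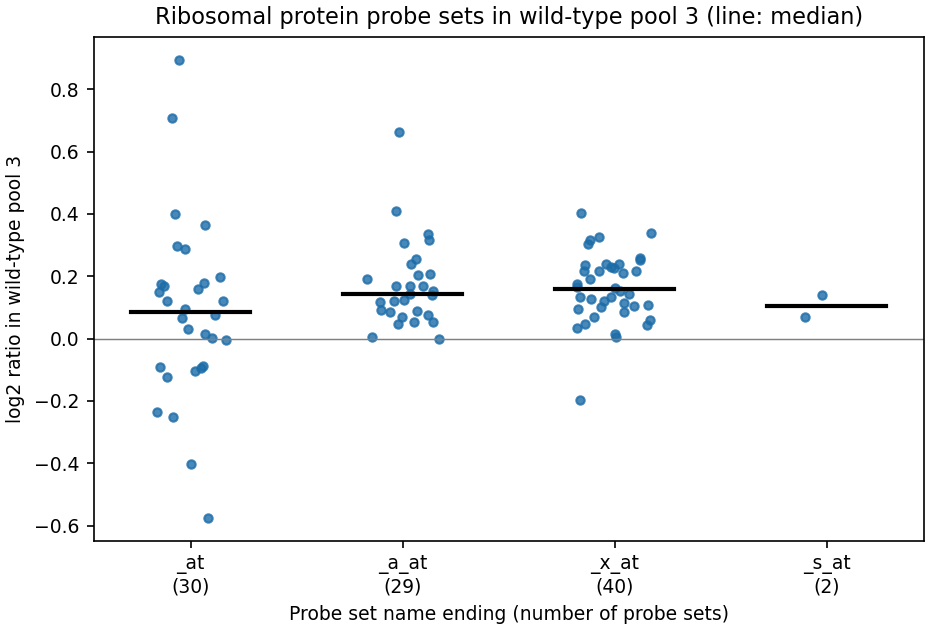
Log2 ratio in wild-type pool 3 (vertical axis) of the 101 ribosomal protein probe sets (points), by the ending of the probe set name, with the median of each kind (black lines). Of 40 probe sets ending in _x_at 39 lie above 0, against 20 of the 30 ending in _at alone.

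In other lists of ribosome and translation genes, most genes were highest in wild-type pool 3. In a list of growth control genes most were not, though its median was also highest there and lowest in wild-type pool 1. Among 74 mitochondrial ribosomal protein genes, which serve the separate ribosome of mitochondria, the median log2 ratio was -0.15, 0.05 and 0.06 in mutant pools 1, 2 and 3, against -0.14, -0.02 and 0.19 in wild-type pools 1, 2 and 3. Pool 1 of either genotype was low and wild-type pool 3 was the highest pool for 50 of the 74 (67.6%, against 34.4% of all genes). By sign 30 were higher and 44 lower in the mutant (median log2 difference -0.02). This turned to 42 higher and 32 lower with quantile normalization (median 0.02), and to 63 higher and 11 lower without wild-type pool 3 (median 0.07).

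For ribosome assembly factors and RNA polymerase I genes, 52 of 57 listed, the medians were -0.12, -0.0049 and 0.06 in the mutant pools, against -0.08, -0.0031 and 0.23 in the wild-type pools, and wild-type pool 3 was the highest for 40 genes (76.9%). By sign 10 were higher and 42 lower in the mutant, with a median log2 difference of -0.08. The split was 17 and 35 with quantile normalization (median -0.04), and 28 higher and 24 lower without wild-type pool 3 (median 0.01). In limma 0 passed and 2 had an unadjusted p under 0.05 (1.28% of all genes did). In 3 of the 52 the mutant pools lay wholly below the wild type (1.84% of all genes did): Heatr1, needed for pre-ribosomal RNA synthesis (-0.29), the helicase gene Ddx10 (-0.23) and, outside the rule for named genes, the polymerase subunit gene Polr1a (-0.13). Without wild-type pool 3 these were -0.24, -0.19 and -0.13.

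Translation factors and other TOP genes, 29 of 35 listed, had medians of -0.09, -0.03 and 0.0045 in the mutant pools, against -0.12, 0.0012 and 0.17 in the wild-type pools, and wild-type pool 3 was the highest for 23 genes (79.3%). By sign 6 were higher and 23 lower in the mutant (median log2 difference -0.06). The split was 8 and 21 with quantile normalization (median -0.05), and 19 higher and 10 lower without wild-type pool 3 (median 0.01). Eif2s3x, a subunit of the initiation factor that brings the first tRNA, was the 1 gene of these 29 whose mutant pools lay wholly below the wild type (1.84% of all genes did), at -0.25, and -0.20 without wild-type pool 3. In limma its unadjusted p was 0.0402, and no other gene of the list had one under 0.05 (1.28% of all genes did). Growth control genes, 18 of 22 listed from the Myc and mTOR pathways and promoter factors, had medians of -0.02, 0.0091 and 0.05 in the mutant pools, against -0.08, -0.04 and 0.10 in the wild-type pools. Wild-type pool 3 was the highest pool for 6 of the 18 (33.3%), close to the share of all genes. A log2 ratio above 0 was found there for 12 of the 18 (66.7%, against 48.6% of all genes). They were higher for 7 and lower for 11 by sign (median log2 difference -0.0028), a split that turned to 13 and 5 both with quantile normalization (median 0.04) and without wild-type pool 3 (median 0.08). Tsc2, an inhibitor of mTOR signalling (0.12), and Zbtb7a (0.08) lay wholly above the wild type in the mutant (3.11% of all genes did). Without wild-type pool 3 these differences were 0.11 and 0.06. With all 6 pools their unadjusted p in limma was 0.234 and 0.442. In limma 0 genes of these lists passed over all genes.

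**Figure D5:**
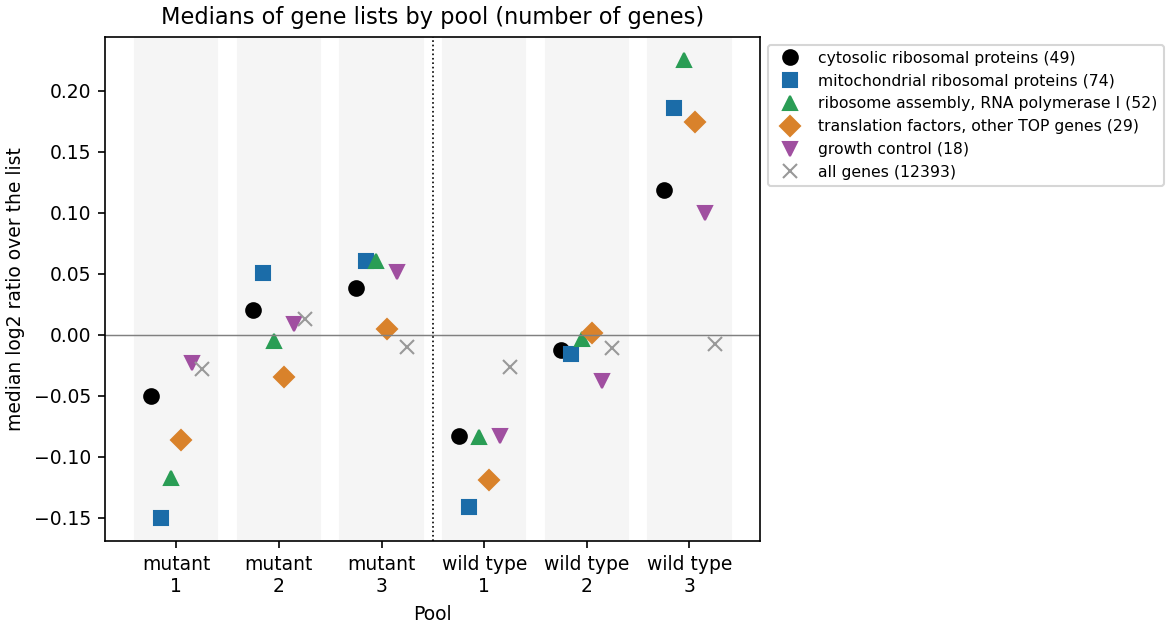
Median log2 ratio (vertical axis) of 5 gene lists and of all genes in the 3 mutant and 3 wild-type pools, with the number of genes in brackets. In wild-type pool 3 the list medians lie between 0.10 and 0.23 while the median of all genes is -0.0072, and in wild-type pool 1 they lie between -0.14 and -0.08.

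Measures of RNA quality and of other tissues did not all follow this order of pools. The log2 distance between 3′ and 5′ control probe sets of Actb was -0.07, 0.13 and -0.11 in mutant pools 1, 2 and 3, against -0.05, 0 and 0.15 in wild-type pools 1, 2 and 3. That of Gapdh was 0.04, 0.17 and -0.04 in the mutant pools, against -0.02, -0.05 and -0.03 in the wild-type pools. The 5′ control probe set of 18S ribosomal RNA, chosen after its values were seen, had log2 ratios of -1.41, 0.66 and -0.58 in the mutant pools, against 1.43, 0.41 and -1.07 in the wild-type pools. The middle one had -0.35, 0.44 and -0.18 in the mutant pools, against 0.19, 0.16 and -0.25 in the wild-type pools, and the 3′ one had -0.23, 0.43 and -0.13 in the mutant pools, against 0.28, 0.12 and -0.37 in the wild-type pools. The 5′ probe set had the most extreme values of these. All were low in wild-type pool 3 and high in wild-type pool 1, opposite to the ribosomal protein genes, but also low in mutant pool 1, where those genes were low too. Surface ectoderm markers (4 of 4 measured) had medians of -0.23, 0.06 and 0.16 in the mutant pools, against -0.19, 0.03 and 0.31 in the wild-type pools, with pool 1 of either genotype low and wild-type pool 3 high. Heart muscle markers (6 of 6) all had a positive mutant minus wild-type difference, with a median level of 2.48 in mutant pool 1, against -0.28 to 0.03 in the other pools. Presomitic mesoderm markers (7 of 8) were all lower in the mutant by sign, with -0.12, -0.25 and 0.06 in the mutant pools, against 0.16, 0 and 0.12 in the wild-type pools. Somite markers (4 of 4), all higher in the mutant by sign, had 0.06, 0.23 and -0.08 in the mutant pools, against -0.35, 0.08 and -0.23 in the wild-type pools. Gut and yolk sac endoderm markers (7 of 7), also all higher by sign, had 0.09, 0.03 and -0.13 in the mutant pools, against -0.26, -0.04 and -0.18 in the wild-type pools. Endothelial markers (5 of 5; 4 higher, 1 lower) had 0.0043, 0.43 and 0.06 in the mutant pools, against -0.05, -0.07 and -0.0043 in the wild-type pools. Primitive blood markers (5 of 6; 3 higher, 2 lower) had 0.19, -0.08 and -0.04 in the mutant pools, against -0.04, -0.0059 and 0.08 in the wild-type pools. Neural markers (6 of 6; 3 higher, 3 lower) had 0.0072, 0.13 and -0.02 in the mutant pools, against -0.06, -0.01 and 0.0017 in the wild-type pools. The part of these in the pattern of the ribosomal protein genes was not tested.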

How the data were processed

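The deposited table holds linear ratios: each value, judged from the table itself, is a probe set divided by its median across the arrays (that median was not below 1, within 0.0011, for 92.8% of probe sets; 3 of the 101 member probe sets were below). The submitters' processing notes list RMA and MAS5 and do not say what each was used for, so background, summarisation and scaling between arrays stay unknown, and no detection calls were used here. Groups follow the sample labels. From there log2 was taken without an offset, 64 control probe sets were left out, probe sets were averaged per gene for 20380 probe sets with 1 symbol in the platform annotation, and genotypes were compared by the moderated two-sided test of limma (version 3.58.1, R version 4.3.3; no term but genotype, Benjamini-Hochberg over all genes or all probe sets, threshold 0.05). Scores over the members got no test, since the members were chosen with earlier results of these data known. An exact permutation test of 3 against 3 pools could also not go below 0.10. The 3 pools per genotype are biological replicates by the series text.

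Members and lists were chosen with earlier results of these data known. The members named were the 6 with the largest difference in each direction and a list of genes known from mouse mutants, p53 control, the stalk, fusions and paralogs, and from each comparison list the 2 genes per direction with the smallest p without overlap, where there were as many. Others are named with the reason beside them. Tested on simulated normal noise with each gene's own SD, with 200 of 12393 genes changed, the gene level fit recovered 46.3%, 89.6% and 98.5% of genes changed by 1.5-fold, 2-fold and 3-fold, with 12 false calls. That noise was drawn for each gene on its own, without shifts shared by a whole array. With 200 changed genes the Benjamini-Hochberg cutoff is also looser than in these data, where 1 gene passed. The shares can therefore be higher than those for the real arrays. Alternatives were quantile normalization, centring, an offset of 1, a filter on medians below 1, 1 probe set per gene, leaving out _s_at and _x_at probe sets or paralogs, array weights, a variance trend, the replicate number as a block, and each pool left out. Adding the probe sets with several symbols came after seeing the data. Start sequences came from RefSeq. Plots used matplotlib 3.10.9 in Python 3.11.15.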

Additional observations from a re-analysis of the deposited data

How the results depend on the processing

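The count of members past the test was 0 under every alternative run, for genes and for probe sets, in limma. At an unadjusted p under 0.05 in limma there were 3 member genes without wild-type pool 3, 1 with array weights and 0 under the others. Over all 12393 genes that count was 440 without wild-type pool 3 and 297 with array weights, against 159 without either change. The median log2 difference of the members ran from -0.06 to 0.05 over the sets of 5 pools, and was 0.0047 with quantile normalization and 0.04 with array weights, whose estimation stopped before it converged. Large minus small subunit ran from -0.03 to 0.02 (-0.0250 to 0.0188) over the sets of 5 pools. Of 418 values of 28 named members under alternatives, 62 had the opposite sign, 12 of them without wild-type pool 3, and the lowest adjusted p was 0.935. Over all genes, the 1 call became 2 with quantile normalization, centring, the filter on medians, array weights and the variance trend, and 1 to 2 when a pool was left out. Over all probe sets, the 1 call became 2 with quantile normalization, 4 with array weights, and 0 to 1 when a pool was left out. With the replicate number as a block the median of the members was -0.0071 and 0 passed. Whether the numbers pair the samples is not given by the labels. Deviations of same-numbered pools correlated at 0.209, 0.017 and 0.175 for numbers 1, 2 and 3, so not every pair was over 0.1, while pools of different numbers correlated at -0.207 to 0.083. As a hint from the data, numbers 1 and 3 had the highest correlations, and wild-type pool 2 correlated best with mutant pool 1. Small changes of single genes are beyond 6 arrays, with a median SE of 0.11 log2 units for members.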
